A study of Canis lupus familiaris with 2 samples.

Results

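Endocytosis and lysosome genes were compared between CLBL-1, a cell line of canine diffuse large B-cell lymphoma labelled as coming from lymph node, and CLBL-1 8.0, its doxorubicin-resistant derivative. The genes were those the authors' deposited tables assign to the pathway terms Endocytosis and Lysosome and to the ontology term lysosomal membrane. Of 74 such genes, all with a row in the deposited comparison table of 1729 rows, 51 were kept. The other 23 lie on chromosomes 4, 5, 6, 32 or 36 or have symbols that were left out. CLBL-1 8.0 was maintained in medium with 8 µM doxorubicin, no drug is given for the medium of CLBL-1, and both lines received 10% fetal bovine serum. Whether the drug was withdrawn before RNA extraction is not stated, so exposure and resistance cannot be told apart. Each line was represented by 1 sample, so no value below has a replicate error and no test between the lines was made. The 51 genes were listed because they differed between the lines, and that they differ is therefore no result.

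In endocytosis, receptors at the cell surface are gathered by adaptors into coated pits, pinched off with the help of curvature proteins and actin, and passed to early endosomes under the control of Rab and Arf GTPases. From there, cargo is recycled to the surface or packed by the ESCRT complexes into multivesicular bodies that fuse with lysosomes, whose enzymes work at the acid pH set by the V-ATPase proton pump. B cells use this route to internalise antigen and to take down signalling receptors. Doxorubicin is a weak base, a class of compound known to be trapped in acid compartments such as lysosomes.

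Of the 51 genes, 44 (86.3%) were higher and 7 were lower in CLBL-1 8.0. Over all 1729 listed rows, 65.2% were higher and 34.8% were lower, and over the 1186 rows outside the left-out chromosomes and symbols these shares were 68.2% and 31.8%. The 23 left-out genes of the terms were nearer to these shares, with 16 higher (69.6%) and 7 lower. Differences here are log2((CLBL-1 8.0 value + 1)/(CLBL-1 value + 1)), a scale on which low genes differ less than by the ratio of their deposited values. Folds are ratios of the deposited values, whose unit is not stated. The median log2 difference of the 51 genes was 0.75, against 0.73 over all rows. At least 2-fold differences on this scale were found in 11 genes upward (21.6%, against 24.1% of all rows and 25.0% of the 1186) and in 4 genes downward (7.84%, against 14.4% and 12.7%). Centred on the median of all rows, 30 of the 51 genes (58.8%) lay above 0, against 50.0% of all rows. Much of the lean in direction thus lay in genes with differences close to that median. The median was taken over rows that were listed because they differed, most of them upward, so it does not mark unchanged expression. Here and below, a centred sign gives a gene's place against that median, not its direction between the lines.

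**Figure D1:**
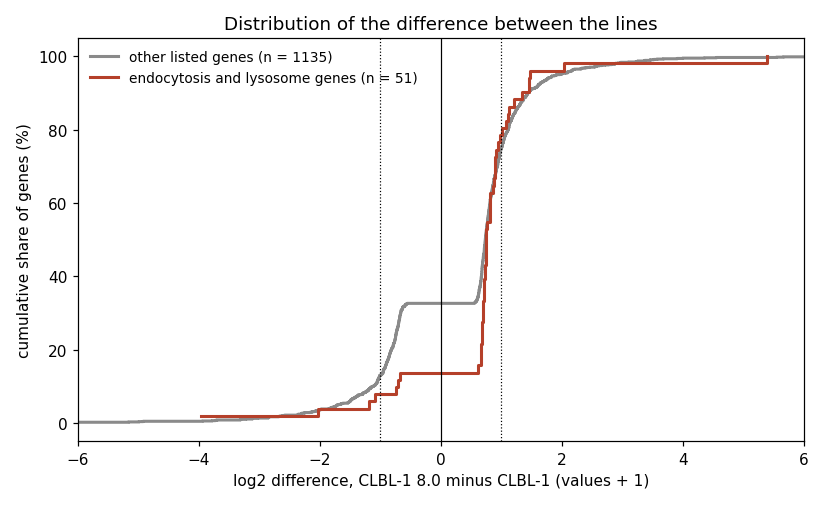
Cumulative share of genes (%) against the log2 difference between CLBL-1 8.0 and CLBL-1, for the 51 endocytosis and lysosome genes and the 1135 other listed genes outside the left-out chromosomes and symbols, with dotted lines at a 2-fold difference. The curves separate below 0, where 13.7% of the 51 genes and 32.6% of the others lie, and the gap closes above it, with the curves close together from a log2 difference of about 1 upward. The flat stretch around 0 is there because genes that differed less were not listed. The horizontal axis ends at 6 in each direction, and a few of the other genes lie beyond it.

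The largest difference in each direction belonged to a single gene far from the rest. CAPZB, the beta subunit of the capping protein that closes the barbed ends of actin filaments (gene ID 478209, chromosome 2, positions 79182668 to 79311529), was at 201 in CLBL-1 8.0 and at 3.78 in CLBL-1, a 53.2-fold difference. WDR41, a partner of C9orf72 and SMCR8 in a complex recruited to lysosomes (gene ID 610498, chromosome 3, positions 29082481 to 29286863), was at 0.423 in CLBL-1 8.0 and at 21.2 in CLBL-1, 50.1-fold lower. The log2 difference of WDR41 shrank with the constant added to both values, being -5.65 as deposited, -3.96 with 1 added and -2.27 with 5 added. Where the higher of both values was 10 or more, further large increases were those of SH3GLB2, PSD and NPC1, all between 2.72-fold and 2.83-fold. Further large decreases were those of SH3KBP1, CAPZA1 and P2RX4.

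**Figure D2:**
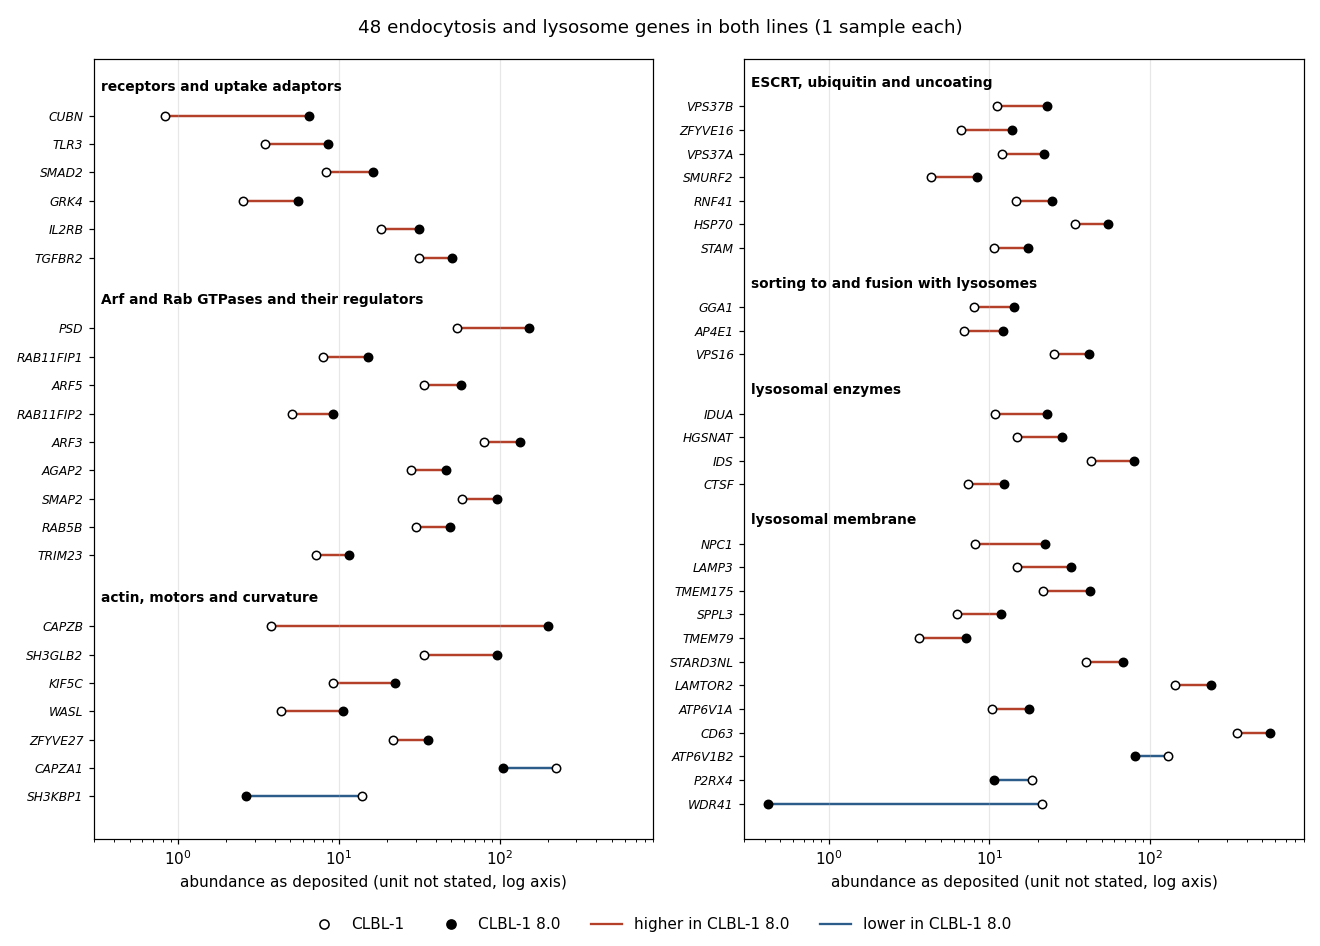
Deposited abundance (unit not stated, log axis) of 48 of the 51 genes in CLBL-1 (open circles) and CLBL-1 8.0 (filled circles), grouped by role, with 1 sample per line and no error bars. Red lines join genes that were higher in CLBL-1 8.0 and blue lines those that were lower. CAPZB and WDR41 have by far the longest lines, and most others span less than a 2-fold difference.

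Among receptors and the adaptors and kinases that act on them, 7 of 8 genes were higher in CLBL-1 8.0, and 6 were when centred as above. Of the 1186 rows outside the left-out chromosomes and symbols, 68.2% were higher, and 51.3% when centred. Roles hold few genes and were assigned after the values were seen, so counts by role are descriptive only. CUBN, known as the endocytic receptor for intrinsic factor with cobalamin in gut and kidney (gene ID 403767, chromosome 2, positions 19784125 to 20042830), was at 6.53 in CLBL-1 8.0 against 0.828 in CLBL-1, a 7.89-fold difference between low values. The double-stranded RNA sensor of endosomes TLR3 was at 8.58 against 3.46. The signalling receptors had narrower gaps: the interleukin 2 receptor subunit IL2RB was at 31.5 against 18.3, and the type II TGF-beta receptor TGFBR2 at 50.4 against 31.5. SMAD2, which carries the TGF-beta signal to the nucleus, was at 16.4 against 8.34. GRK4, a kinase that marks G protein-coupled receptors for arrestin, was at 5.54 against 2.52, a 2.20-fold difference.

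All 9 genes of Arf and Rab GTPases and their regulators were higher in CLBL-1 8.0 as deposited, and 5 when centred. The shares over the 1186 rows were 68.2% and 51.3%. Their median log2 difference was 0.74, close to the 0.73 of all rows. PSD, an exchange factor that activates ARF6 (gene ID 486859, chromosome 28, positions 14907600 to 14937611), stood apart at 153 against 54.6, a 2.79-fold difference. In the reference table PSD overlaps NFKB2 and FBXL15, neither of which is among the listed rows. Strand handling is not stated, so the 3 genes may share reads. The GTPases themselves had narrower gaps. ARF3 was at 134 against 79.6, ARF5 at 57.8 against 33.7, and RAB5B, a GTPase of early endosomes, at 49.0 against 30.2. The Arf GTPase-activating proteins went the same way, with AGAP2 at 46.3 against 27.9 and SMAP2 at 95.7 against 58.4. So did the RAB11 effectors of recycling endosomes, RAB11FIP1 at 15.2 against 7.92 and RAB11FIP2 at 9.23 against 5.08. TRIM23, a ubiquitin ligase with an Arf-like domain of its own, was at 11.5 against 7.19, the smallest difference of the 9 on the log2 scale at 0.61.

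Genes for actin, motors and membrane curvature showed the widest spread, from -2.03 to 5.40 on the log2 scale. Of these 7 genes, 5 were higher as deposited and 4 when centred, near the 68.2% and 51.3% of the 1186 rows. Both subunits of the capping protein dimer were listed, and they differed in opposite directions. CAPZA1, an alpha subunit (gene ID 475857, chromosome 17, positions 62900062 to 62948164), was at 105 in CLBL-1 8.0 and at 223 in CLBL-1, 2.13-fold lower, whereas CAPZB was higher as given above. In the reference table CAPZB overlaps 5 genes known only by placeholder names and CAPZA1 overlaps ST7L and 1 placeholder, and whether reads of these reached either value was not tested. SH3GLB2, endophilin B2 of the membrane-bending endophilin family, was at 96.5 against 34.1. SH3KBP1, also known as CIN85, an adaptor that joins the ubiquitin ligase CBL to endophilins when receptors are taken down, was at 2.63 against 13.9, 5.27-fold lower. SH3GLB2 and SH3KBP1 lay on opposite sides, and whether their proteins act together is not known from these data. WASL, the N-WASP activator of branched actin, was at 10.7 against 4.37. The kinesin heavy chain KIF5C was at 22.5 against 9.14, and ZFYVE27, protrudin, which helps load endosomes onto kinesin, was at 35.9 against 21.6.

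All 7 genes grouped under ESCRT sorting, ubiquitin ligation and coat removal were higher in CLBL-1 8.0 as deposited, and 4 when centred. The shares over the 1186 rows were 68.2% and 51.3%. Their median was 0.81, against 0.74 over those rows, and none of the 7 reached a 2-fold difference on the log2(value + 1) scale. Of ESCRT-I, which passes ubiquitin-tagged cargo inward, the alternative subunits VPS37A and VPS37B were at 21.9 against 12.1 and at 22.9 against 11.1. STAM, of the ESCRT complex that first binds such cargo, was at 17.5 against 10.7, and the endosomal FYVE protein ZFYVE16 was at 13.8 against 6.71. The ubiquitin ligases SMURF2 and RNF41 were at 8.40 against 4.37 and at 24.5 against 14.7. The row HSP70 was at 54.5 against 34.1. It is named for a chaperone family whose constitutive member strips clathrin coats, but its label does not identify it as that member. Near-identical HSP70 copies can share reads, so this value is uncertain. The 3 genes for sorting to and fusion with lysosomes were higher as well. When centred, 2 of them lay above the median of all rows and VPS16 just below it, at -0.025. GGA1, which sorts mannose phosphate receptors at the Golgi, was at 14.2 against 8.04. The adaptor subunit AP4E1 was at 12.2 against 6.97, and VPS16, a core subunit of the tethering complexes CORVET and HOPS, was at 41.8 against 25.2.

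Of 5 lysosomal enzymes, 4 were higher as deposited and 3 when centred, and these 3 act on glycosaminoglycans. Of the 1186 rows, 68.2% were higher as deposited and 51.3% when centred. IDUA, alpha-L-iduronidase (gene ID 100505382, chromosome 3, positions 91517225 to 91534593), was at 22.8 against 10.9. The sulfatase IDS, which acts on the same chains, was at 79.7 against 43.0. HGSNAT, a membrane enzyme that acetylates heparan sulfate ends, was at 28.4 against 14.9. In the reference table IDUA overlaps SLC26A1, so both genes may share reads. The protease CTSF, cathepsin F, was at 12.3 against 7.35.

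Of 12 genes for lysosomal membrane proteins and complexes, 9 were higher and 3 lower in CLBL-1 8.0, and 6 were higher when centred. These counts were near the shares of the 1186 rows, 68.2% higher and 51.3% when centred. NPC1, which exports cholesterol from lysosomes (gene ID 403698, chromosome 7, positions 64764941 to 64802507), was at 22.1 against 8.12, and STARD3NL, a cholesterol-binding protein of late endosomes, was at 68.1 against 40.1. NPC1 overlaps RMC1 in the reference table, where 23 of the 51 genes overlap another gene. For only 1 of them is an overlapping gene itself listed. By the deposited positions none of the 51 overlaps another listed row. LAMP3, a membrane glycoprotein related to LAMP1 and LAMP2, was at 32.4 against 14.9, and the tetraspanin CD63, abundant on late endosomes and exosomes, was at 554 against 345. The lysosomal ion channel TMEM175 was at 42.0 against 21.7. It overlaps GAK and DGKQ in the reference table. The ATP-gated channel P2RX4 was on the other side, at 10.7 against 18.5. The V-ATPase was split as deposited: ATP6V1A, the catalytic subunit, was at 17.5 against 10.4, whereas its partner in the same ring, ATP6V1B2, was at 80.6 against 129. Centred, ATP6V1A lay just below the median of all rows at -0.031 and ATP6V1B2 far below it at -1.40. The direction of each between the lines is that of the deposited values. LAMTOR2, of the Ragulator complex that anchors mTORC1 signalling on lysosomes, was at 238 against 144. The intramembrane protease SPPL3 was at 11.9 against 6.30, and the membrane protein TMEM79 at 7.20 against 3.65.

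**Figure D3:**
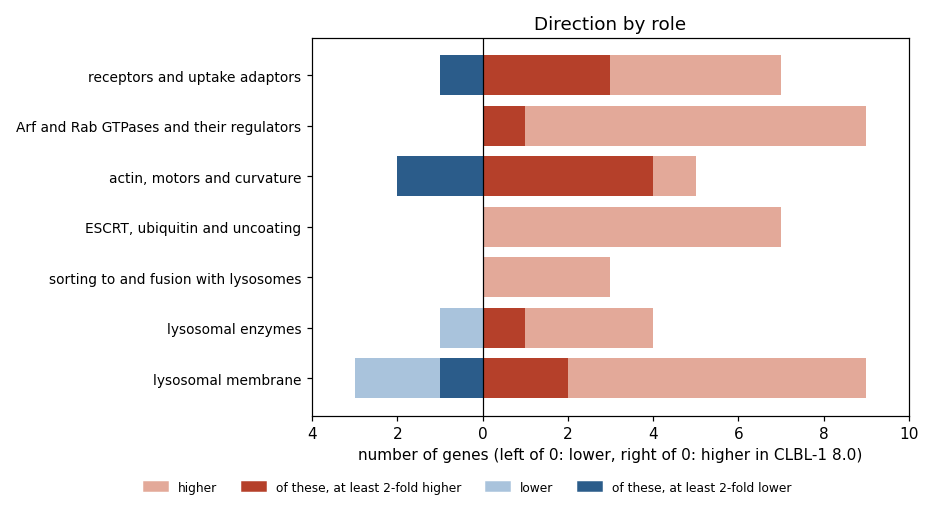
Number of genes higher (right of 0) and lower (left of 0) in CLBL-1 8.0 in each role, as deposited and not centred, with the part that differed at least 2-fold on the log2(value + 1) scale in the darker shade. The 7 lower genes lie in 4 of the 7 roles, and the actin, motor and curvature genes have both the most 2-fold increases, 4, and the most 2-fold decreases, 2. Over the 1186 rows outside the left-out chromosomes and symbols, 68.2% were higher, 25.0% at least 2-fold higher and 12.7% at least 2-fold lower.

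By term, 25 of 28 genes of Endocytosis, 9 of 10 of Lysosome and 13 of 16 of lysosomal membrane were higher, with median log2 differences of 0.76, 0.82 and 0.74. Over the 1186 rows outside the left-out chromosomes and symbols, 68.2% were higher and the median was 0.74, so the medians by term were near that of these rows. Centred, the counts by term were 17, 7 and 8, against 51.3% of the 1186 rows. The terms share CD63, NPC1 and HGSNAT. Genes of the same machinery that none of the 3 terms names were looked up in 12 lists covering 542 genes, and 13 had a row outside the left-out chromosomes and symbols, 11 higher and 2 lower, against 68.2% higher over the 1186 rows. The V-ATPase subunits ATP6V1F and ATP6V1G2 were at 283 against 169 and at 6.003 against 2.18. Thus 3 of the 4 listed V-ATPase subunits were higher as deposited, a small count beside the 68.2% of the 1186 rows. The log2 difference of ATP6V1F, 0.74, was close to the median of 0.73 over all rows. MARCH8, a ubiquitin ligase that removes membrane receptors to lysosomes, was at 13.4 against 1.86, a 7.23-fold difference. SNX9, a sorting nexin that acts with dynamin in vesicle scission (chromosome 1, positions 47346214 to 47457417), was at 1.10 against 19.8, 18.0-fold lower. The exchange factors RIN1 and DENND1C for Rab GTPases were at 7.62 against 3.27 and at 52.8 against 29.8. The curvature protein PACSIN3 was at 24.1 against 14.0 and the retrieval nexin SNX17 at 70.2 against 44.1. The thrombin receptor F2R was at 7.16 against 2.65 and the hyaluronidase HYAL2 at 38.8 against 23.6. The inhibitory SMADs were split, with SMAD7 at 13.5 against 7.35 and SMAD6 at 3.89 against 6.91.

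The 51 genes lay on 23 chromosomes, and some were close neighbours. CD63, RAB5B and RNF41 follow each other near the start of chromosome 10 with gaps of 168 and 187 kb and log2 differences of 0.68, 0.68 and 0.70. IDUA and TMEM175 lie 19.4 kb apart on chromosome 3 with 1.01 and 0.92. Because whole stretches of the genome shared a direction in these lines, each gene was set beside up to 5 listed rows on each side of it. For the 44 higher genes, 74.3% of these neighbours were higher, and for the 7 lower genes 67.7% were, against 68.2% of the 1186 rows outside the left-out chromosomes and symbols. Of the 44 higher genes, 42 had neighbours with a positive median, a share not computed for all listed rows, most of which were higher. The exceptions were CAPZB, whose neighbours had a median of -0.95, and TGFBR2, with -0.043. Of the 7 lower genes, CAPZA1 alone had neighbours with a negative median, -0.87, and the other 6, among them WDR41, SH3KBP1, P2RX4 and ATP6V1B2, lay among rows that were mostly higher. Across the 51 genes, Pearson's r between a gene's difference and its neighbours' median was -0.23 and Spearman's rho was -0.028, a description in which nearby genes share neighbours. The part of chromosomal position in these differences was not tested.

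**Figure D4:**
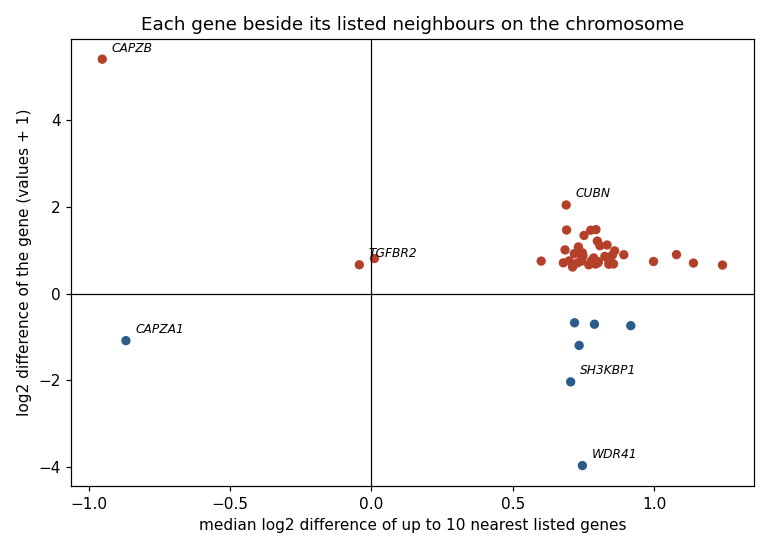
Log2 difference of each of the 51 genes (vertical axis) against the median log2 difference of up to 10 nearest listed rows on its chromosome (horizontal axis), with genes higher in CLBL-1 8.0 in red and lower ones in blue. Most genes lie at the upper right, CAPZB lies high above neighbours with a median of -0.95, and WDR41 and SH3KBP1 lie low beside neighbours with positive medians.

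Markers of cell types could be checked only as far as they were listed. Of 12 B cell markers, CD37 was listed, at 26.6 in CLBL-1 8.0 against 50.4. Of 13 markers of myeloid cells, which are rich in lysosomes, FCER1G was listed, at 14.0 against 7.74. The 12 markers of T and NK cells had 2 rows, TRAT1 at 20.6 against 2.72 and PRF1 at 1.07 against 6.67. The 9 stromal and epithelial markers had 1 row, EPCAM, at 2.07 against 5.26. The other markers had no row, so their levels are not known here, and the part of other cell types in the differences was not tested.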

How the data were processed

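Poly-A-selected RNA of CLBL-1 and CLBL-1 8.0 was sequenced, with 1 sample per line, per the labels' protocols, which mention separate dishes without saying whether they were pooled. HISAT2, StringTie and the build CanFam3.1 are named in the submitters' processing notes, and positions are given as deposited. Nothing used here gives their versions, the annotation or how strand was handled. The abundance values deposited by the authors have no stated unit, so depth is unknown and levels were not compared between genes as amounts. The authors' deposited log2 fold changes equal log2 of the ratio of these values, and all 1729 rows differ at least 1.59-fold where both values are above 0. In every row the higher value was at least 5.007 and the values of the lines lay at least 2.00 apart. Genes that are low in 1 line were thus listed only through the line where they are higher. The p-value of each term was deposited by the authors and not used, and the count of genes per term in the deposited tables matched the genes it lists for the 3 terms.

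Genes of the 3 terms were matched by gene ID or symbol. Left out were chromosomes 4, 5, 6, 32 and 36, symbols starting with ZNF, and 6 symbols: IL2RA, DLA88, CTSS, HLA-DRB1, DLA-DQA1 and RAC2. Differences were computed with a pseudocount of 1, no filter and no test, in Python 3.11.15 with pandas 2.3.3 and numpy 2.4.6, and the procedure was tested on simulated data. Of the 51 genes, 48 are named with both values, and the other 3 are not reported here by name but stay in all counts. Leading genes were taken from the 5 largest differences in each direction among those with at least 10 in the higher line. Of the role lists, the 2 largest differences per list among genes outside the terms are named. Gene IDs of 50 of the 51 genes were found, with the same symbol, in a reference table of assembly UU_Cfam_GSD_1.0, used for overlaps only. The genes and lists were chosen with earlier results of these data known. Roles were assigned and neighbouring rows examined after the values were seen.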

Additional observations from a re-analysis of the deposited data

How the results depend on the processing

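No paired analysis was possible because each line has 1 sample. The 44 higher and 7 lower genes were the same counts with no pseudocount, with a pseudocount of 5, with upper-quartile scaling of the parental values and when matched by symbol alone. A constant added to both values cannot turn a sign. Nor could the upper-quartile factor of 1.25, because rows with both values above 0 differ at least 1.59-fold. Those settings are therefore no check of direction. Centring on the median of all rows left 30 above and 21 below it, with 14 signs turned, all of genes with a difference between 0 and 0.73. That median and the upper quartile were both taken from listed rows only, so neither rests on unchanged genes. The median of 0.75 became 0.81 with no pseudocount, 0.64 with a pseudocount of 5, 0.44 with upper-quartile scaling, 0.018 when centred and 0.76 over all 74 genes of the terms, of which 14 were lower. The 11 genes at least 2-fold higher became 14 (27.5%) with no pseudocount, against 29.2% of all listed rows in that setting. With a pseudocount of 5 they became 5 (9.80% against 11.4%) and with upper-quartile scaling 6 (11.8% against 12.5%). When centred they became 2 (3.92% against 5.26%). Over all 74 genes they became 17 (23.0% against 24.1%). The 4 genes at least 2-fold lower became 2 with a mean of at least 10, a setting without a share over all rows. With a pseudocount of 5 they became 3 (5.88% against 8.91% of all listed rows) and with upper-quartile scaling 6 (11.8% against 31.0%). When centred they became 7 (13.7% against 34.8%), which are all the lower genes, because centring made every lower row at least 2-fold lower. Over all 74 genes they became 8 (10.8% against 14.4%). The 27 genes that overlap no other gene in the reference table, an alternative added after seeing the data that also leaves out SH3KBP1, which has no entry there, held 24 higher and 3 lower genes, 4 and 1 of them at least 2-fold. Over the 1186 rows, whose overlaps were not looked up, 68.2% were higher, 25.0% at least 2-fold higher and 12.7% at least 2-fold lower. These moves follow from the shift each scaling makes or from the genes each set holds. With 1 sample per line and unknown depth, neither biological nor counting error can be given for any value.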

Other observations

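Ontology terms of the authors' deposited table that were not used to choose the genes held further genes of these routes. Outside the left-out chromosomes and symbols, 4 such terms (endocytosis, receptor-mediated endocytosis, its positive regulation, and lysosome) added 17 genes, 12 higher and 5 lower in CLBL-1 8.0, with a median log2 difference of 0.68, against 68.2% higher over the 1186 listed rows outside those chromosomes and symbols and a median of 0.74 there. Some of them, such as SNX9, MARCH8, HYAL2, SNX17 and SNX33, are also in the role lists above.

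Among these genes, VMA21, an assembly factor of the V-ATPase, was at 80.4 in CLBL-1 8.0 against 36.3 in CLBL-1. FYCO1, which links late endosomes and autophagosomes to kinesin, was at 5.08 against 2.11. The calpains CAPN1 and CAPN2, calcium-dependent proteases, were at 40.9 against 23.3 and at 60.4 against 33.0. APOE, an apolipoprotein, was on the other side, at 1.63 against 5.86. So were ADA, adenosine deaminase, at 6.20 against 22.7, and B2M, beta-2-microglobulin, at 797 against 1550. The chaperone of lipid-anchored proteins UNC119 was at 34.0 against 59.7. Of the sorting nexins in these terms, SNX17, SNX30 and SNX33 were higher, with SNX30 at 10.3 against 4.98 and SNX33 at 8.61 against 5.25, and SNX9 was lower. These genes were named after their values were seen.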
